A study of Mus musculus with 6 samples.

Results

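Arntl (also called Bmal1), Clock, Npas2 and Arntl2 encode the transcriptional activators of the circadian clock. The 4 members were taken by gene symbol from tables that list 22692 genes in each of 6 RNA-sequencing libraries of mouse whole eye. The eyes came from C57BL/6J, a common inbred strain, with no other genotype or treatment named, and were collected at 9.0 h (3 libraries) or at 1.5 h (3 libraries) after light onset. Each library was made from pooled RNA of 5 female mice aged 4 weeks. RNA of the neural retina, pigment epithelium, lens, cornea, sclera and adhering muscle is mixed in such a sample, and fewer cells of a type and less RNA per cell cannot be told apart in it. Nothing in the labels states that replicate pools came from separate mice, so a p-value here reflects library-to-library spread that could be technical in part.

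The circadian clock is a feedback loop of transcription. The ARNTL protein pairs with CLOCK, or with its close relative NPAS2, through bHLH and PAS domains, and the pair binds E-box sequences to switch on the Per, Cry, Nr1d and Dbp genes. PER and CRY proteins then block the pair, and the nuclear receptors REV-ERB (Nr1d1, Nr1d2) repress Arntl where ROR receptors (such as Rora and Rorb) activate it. ARNTL2 is a paralog of ARNTL that can also pair with CLOCK. In the mammalian retina most layers carry such clocks, and NPAS2 is best known as a forebrain counterpart of CLOCK.

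Promoter windows of the activators are shown because the receptors above act on Arntl through a sequence that can be read in its promoter. The RefSeq windows (build GRCm38.p6, from 250 bases before to 50 bases after a transcription start) were matched by symbol for all 4 members. Capitals mark every match, on either strand, to AGTAGGTNA (the core of the ROR response element as it stands in Arntl), AGGTCA (the nuclear receptor core, which overlaps it), CACGTG (the E-box) and TTATGTAA (the D-box). Of 2 windows for Arntl and 3 for Clock, the one with the most matches is shown for Arntl and the most upstream one for Clock.
Arntl, chr7:113207261-113207560, plus strand: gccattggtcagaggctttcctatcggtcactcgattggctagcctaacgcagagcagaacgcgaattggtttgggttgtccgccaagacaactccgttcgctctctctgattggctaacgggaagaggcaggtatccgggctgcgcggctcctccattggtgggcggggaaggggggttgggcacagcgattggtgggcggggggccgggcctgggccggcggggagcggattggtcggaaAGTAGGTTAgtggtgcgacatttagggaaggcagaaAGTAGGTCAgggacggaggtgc
Clock, chr5:76304743-76305042, minus strand: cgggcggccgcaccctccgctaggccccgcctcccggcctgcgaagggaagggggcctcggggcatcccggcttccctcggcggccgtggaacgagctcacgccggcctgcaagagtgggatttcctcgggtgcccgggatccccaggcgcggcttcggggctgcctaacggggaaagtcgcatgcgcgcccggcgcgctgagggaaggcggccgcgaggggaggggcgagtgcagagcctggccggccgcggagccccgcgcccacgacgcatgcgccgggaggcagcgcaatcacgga
Npas2, chr1:39194022-39194321, plus strand: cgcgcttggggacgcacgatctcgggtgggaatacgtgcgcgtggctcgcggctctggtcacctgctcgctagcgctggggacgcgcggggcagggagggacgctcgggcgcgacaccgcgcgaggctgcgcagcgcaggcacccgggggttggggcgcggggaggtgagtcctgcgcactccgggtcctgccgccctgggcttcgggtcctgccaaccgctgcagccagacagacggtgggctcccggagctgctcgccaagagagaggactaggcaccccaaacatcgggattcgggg

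The Arntl window held AGTAGGTNA 2 times, as AGTAGGTTA and as AGTAGGTCA, starting at -8 and 29 from the transcription start. Of 32851 mouse promoter windows, 0.591% held the motif at least once and 3 windows, this one included, held it 2 or more times. The motif was written from Arntl and this window chosen for its matches, so finding it here was fixed in advance. The shares are a description only. The same Arntl window also held 7 copies of CCAAT, the binding sequence of the factor NF-Y, on its opposite strand. Of all windows, 37.4% had at least 1 copy and 11.7% had 2 or more, and the share with 7 was not counted. The shown Clock and Npas2 windows held none of these motifs. E-boxes (7.15% of all windows) and D-boxes (0.938%) were in no window of any member, and AGGTCA (16.3%) was also in 1 other Clock window. The shown windows were rich in G and C, with 61.7% in Arntl, 76.3% in Clock and 72.7% in Npas2, while the Arntl2 window had 43.3%, against a median of 52.7% over all windows. A match is a string of letters, and a window without one says only that these letters are not in these 300 bases.

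Values were deposited in RPKM, read numbers divided by gene length and library total, so levels of different genes can be set side by side. Total reads per library, estimated from the smallest steps in the values, ranged from 24040000 to 31890000 at 9.0 h and were 28960000, 12690000 and 13000000 in 1.5 h replicates 1 to 3. The comparison was tested with limma on log2(RPKM + 0.1) over the 13490 genes that reached 1 RPKM in at least 3 libraries, and a gene was called at a Benjamini-Hochberg adjusted p under 0.05 over all of them. Differences are on this log2 scale, where the added 0.1 makes changes of weakly expressed genes look smaller. Of the 4 members, Arntl, Clock and Npas2 passed the filter. Arntl2 did not.

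Arntl, whose protein pairs with CLOCK or NPAS2, was the most abundant member in every library. It had 14.82, 14.07 and 13.73 RPKM in 9.0 h replicates 1 to 3, against 18.39, 26.98 and 19.95 RPKM in 1.5 h replicates 1 to 3. All 3 of the 9.0 h libraries were below every 1.5 h library, and 1.5 h replicate 2 stood above the other two at that time. The means were 14.21 ± 0.55 RPKM at 9.0 h and 21.77 ± 4.58 RPKM at 1.5 h (SD, n = 3 each). The log2 difference, 9.0 h minus 1.5 h, was -0.59 ± 0.16 (SE; 95% interval -0.95 to -0.24), and it was not called (limma adjusted p = 0.205). Without 1.5 h replicate 1 it was -0.70 and passed (limma adjusted p = 0.000516), in a fit that called 1245 genes. Without each other library in turn it was not called (limma adjusted p from 0.233 to 0.819).

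Clock, the DNA-binding partner of ARNTL, came next in level. It had 7.80, 8.05 and 7.15 RPKM at 9.0 h, against 13.81, 14.35 and 11.45 RPKM at 1.5 h. The times did not overlap, and the lowest library of each time was replicate 3. The mean at 9.0 h was 7.67 ± 0.46 RPKM and at 1.5 h 13.21 ± 1.54 RPKM (SD, n = 3 each), a ratio of 0.581. The log2 difference was -0.77 ± 0.14 (SE; 95% interval -1.09 to -0.45) and fell short of the threshold (limma adjusted p = 0.0728). It ranked in place 52 of the 13490 genes by unadjusted p, and it passed without 1.5 h replicate 1 (limma adjusted p = 0.000428), again in the fit with 1245 calls. Without each other library in turn it did not pass (limma adjusted p from 0.0785 to 0.592).

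Npas2, the alternative partner to CLOCK, fell at 9.0 h. It had 0.885, 0.824 and 0.853 RPKM at 9.0 h, against 3.27, 2.40 and 2.18 RPKM at 1.5 h. The 9.0 h values lay within a narrow band far below all 1.5 h libraries, of which replicate 1 was the highest. The mean of 0.854 ± 0.031 RPKM at 9.0 h was 0.326 of the 2.62 ± 0.58 RPKM at 1.5 h (SD, n = 3 each). The log2 difference was -1.49 ± 0.20 (SE; 95% interval -1.93 to -1.05; limma adjusted p = 0.0164). It was place 16 of 13490 when genes are ordered from the largest fall.

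Npas2 was the only member called. Lower calls were 10 of 13490 genes (0.0741%), beside 1 of the 3 tested members. All 3 tested members lay lower at 9.0 h with no overlap between the times, as did 8.41% of tested genes. Npas2 passed the filter on low values only through its 1.5 h libraries, since it was under 1 RPKM at 9.0 h. It was also called with the filter set at 0.3 RPKM (limma adjusted p = 0.0143), which it passed in all 6 libraries, and with no filter (limma adjusted p = 0.0303). The call ended without any 1 of the 9.0 h libraries: the log2 difference was -1.51, -1.47 and -1.49 without replicates 1, 2 and 3, with limma adjusted p = 0.132, 0.0768 and 0.247. At a pseudocount of 1 RPKM the difference was -0.95 (limma adjusted p = 0.0225).

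The depth behind Npas2 was modest. With the longest coding transcript in GENCODE M21 (4236 bases) as its length, its values stand for about 120, 105 and 87 reads in 9.0 h replicates 1 to 3, against about 401, 129 and 120 reads in 1.5 h replicates 1 to 3. Counting error alone would then give a coefficient of variation of 9.1% to 10.7% per library at 9.0 h, and the observed one over those 3 libraries was 3.59%, against 22.0% over the 1.5 h libraries. The 9.0 h libraries thus lay closer together than read counting gives on average. Arntl and Clock each rested on at least 772 reads in every library by the same reckoning. No transcript of another gene matched Arntl, Clock or Npas2 at 95% identity over 50 bases or more. The longest match between Clock and Npas2 had 68.8% identity over 1081 bases.

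Arntl2, the paralog of Arntl, showed no consistent direction. It had 0.973, 0.933 and 0.715 RPKM at 9.0 h, against 1.40, 0.451 and 0.616 RPKM at 1.5 h. The highest and the lowest library were both from 1.5 h, so the 9.0 h range lay inside the 1.5 h range. The means were 0.874 ± 0.139 RPKM at 9.0 h and 0.824 ± 0.510 RPKM at 1.5 h (SD, n = 3 each). With the filter at 0.3 RPKM it was tested, and the log2 difference was 0.20 ± 0.34 (SE; 95% interval -0.56 to 0.96; limma adjusted p = 0.873). The difference depended on which 1.5 h library was left out: it was 0.62 without replicate 1, -0.10 without replicate 2 and 0.09 without replicate 3. About 17 and 23 reads stood behind 1.5 h replicates 2 and 3. Stretches of up to 70 bases of Arntl2 have 95% identity or more with transcripts of 4 other genes, so its value carries that uncertainty.

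**Figure D1:**
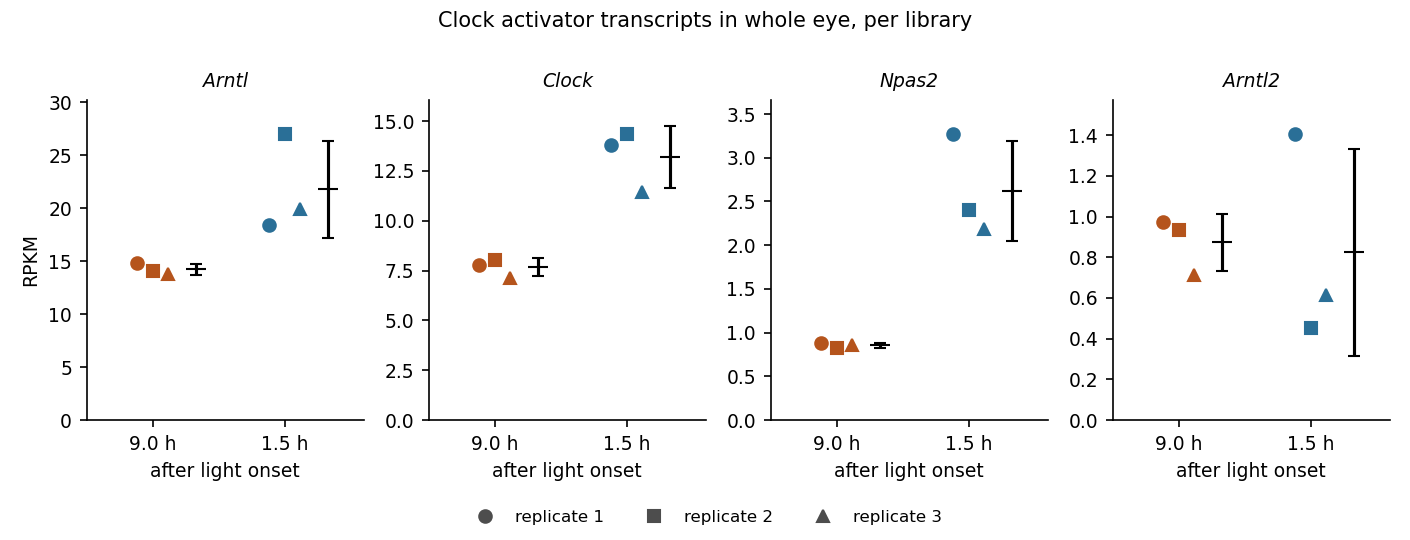
RPKM of Arntl, Clock, Npas2 and Arntl2 (vertical axes, each from 0) in the 3 libraries at 9.0 h (left in each panel) and the 3 at 1.5 h (right). Symbols are replicates 1 to 3 and bars are mean ± SD. Npas2 sits between 0.824 and 0.885 RPKM at 9.0 h, below all 1.5 h libraries (2.18 to 3.27 RPKM), and Arntl2 overlaps between the times.

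The order of levels was Arntl, then Clock, then Npas2 and Arntl2. At 9.0 h the levels of Npas2 (0.824 to 0.885 RPKM) lay inside those of Arntl2 (0.715 to 0.973 RPKM), so the order of these 2 could not be told beyond their spread. At 1.5 h Npas2 (2.18 to 3.27 RPKM) was above Arntl2 (0.451 to 1.40 RPKM) in every library. Arntl and Clock did not overlap each other at either time.

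The ratio of Clock to Npas2 RPKM sets the 2 partner transcripts of Arntl against each other. It was 8.82, 9.77 and 8.38 in 9.0 h replicates 1 to 3, against 4.22, 5.97 and 5.25 in 1.5 h replicates 1 to 3. Every 9.0 h library had a higher ratio than every 1.5 h library. The mean was 8.99 ± 0.71 at 9.0 h and 5.15 ± 0.88 at 1.5 h (SD, n = 3 each). The log2 ratio, with 0.1 RPKM added to each gene, was 0.72 higher at 9.0 h (two-sided exact permutation p = 0.1, the smallest that 3 against 3 allows; Benjamini-Hochberg adjusted p = 0.2 over the 4 ratios tested). The fall of Npas2 was therefore larger than the difference of Clock in these libraries. With 3 libraries per time this permutation test cannot give p under 0.05, so it cannot decide whether that holds beyond them. Leaving out 1 library at a time gave 0.59 to 0.83. The size depended on the amount added to each gene: with 1 RPKM in place of 0.1 the log2 difference was 0.24 (two-sided exact permutation p = 0.2, n = 3 each).

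As a share of the 2 partner transcripts together, Npas2 made up 10.2%, 9.28% and 10.7% in 9.0 h replicates 1 to 3. It made up 19.1%, 14.3% and 16.0% in 1.5 h replicates 1 to 3. Clock thus supplied most partner RNA in every library of both times.

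The ratio of Arntl to Clock overlapped between the times. It was 1.90, 1.75 and 1.92 at 9.0 h, against 1.33, 1.88 and 1.74 at 1.5 h, where replicate 1 was the lowest of all 6 libraries. The log2 ratio was 0.18 higher at 9.0 h (two-sided exact permutation p = 0.2, n = 3 each; adjusted p = 0.2), and 0.03 higher without 1.5 h replicate 1. The ratio of Arntl to Npas2 was 16.7, 17.1 and 16.1 at 9.0 h, against 5.62, 11.2 and 9.14 at 1.5 h, with no overlap. Its log2 difference was 0.90 (two-sided exact permutation p = 0.1, n = 3 each; adjusted p = 0.2), and 0.39 with 1 RPKM added (two-sided exact permutation p = 0.2). The sum of both partners per Arntl was 0.600 ± 0.026 at 9.0 h and 0.745 ± 0.163 at 1.5 h (SD, n = 3 each), and the times overlapped (two-sided exact permutation p = 0.2; adjusted p = 0.2). Its log2 difference was -0.29, and -0.12 without 1.5 h replicate 1.

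**Figure D2:**
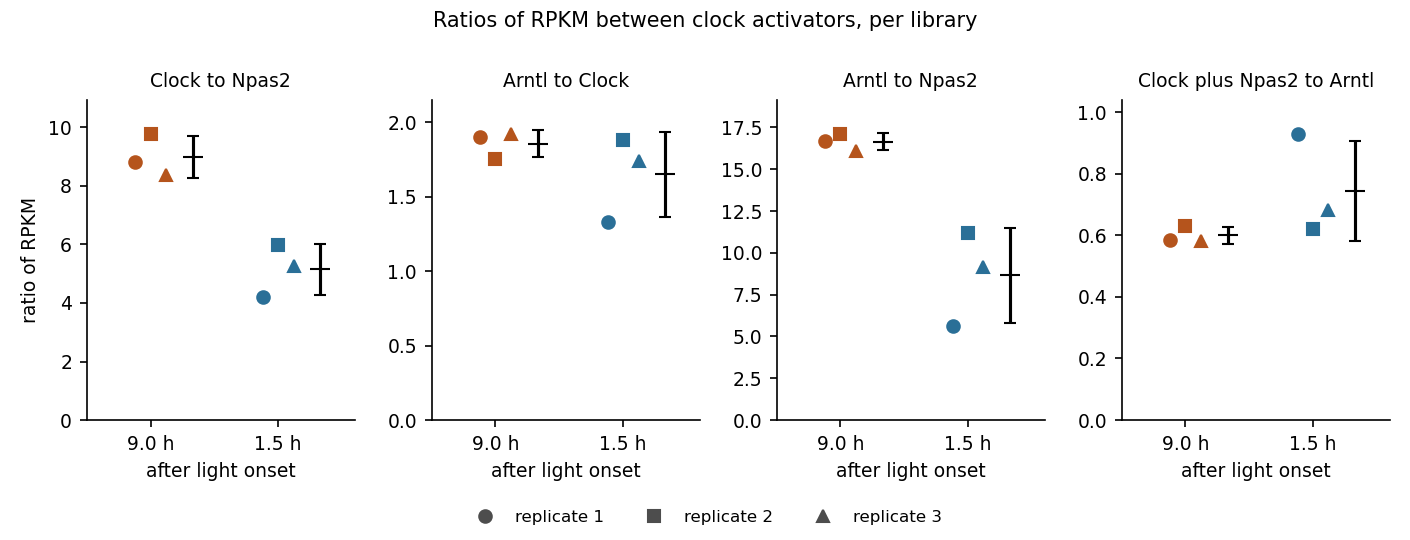
Ratios of RPKM (vertical axes, each from 0) of Clock to Npas2, Arntl to Clock, Arntl to Npas2, and the sum of Clock and Npas2 to Arntl, per library at 9.0 h (left in each panel) and 1.5 h (right), with mean ± SD. Clock to Npas2 and Arntl to Npas2 do not overlap between the times, and the other ratios do.

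Of the genes that control Arntl, none passed the test. The list of REV-ERB and ROR receptors examined here had 4 members, all tested, and limma called none (3 had an unadjusted p under 0.05, as did 11.1% of all tested genes). This list and the gene lists below were chosen with earlier results of these data known, so such shares are a description only. The repressors Nr1d1 and Nr1d2 were at 105.8 and 24.92 RPKM on average at 9.0 h, against 62.57 and 16.95 RPKM at 1.5 h. Their log2 differences were 0.75 and 0.55 (limma adjusted p = 0.0858 and 0.164). The activators Rora and Rorb averaged 13.7 and 11.29 RPKM at 9.0 h, against 20.0 and 14.23 RPKM at 1.5 h. Their log2 differences were -0.55 and -0.32 (limma adjusted p = 0.189 and 0.497). Each of the 4 receptors had no overlap between the times, 2 higher at 9.0 h and 2 lower, against 9.78% of tested genes not overlapping on the higher side and 8.41% on the lower. For Rorb the separation was narrow, with 11.62 RPKM in 9.0 h replicate 1 and 11.65 RPKM in 1.5 h replicate 1.

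Among genes downstream of the activator pair, Dbp and Gm129 were called and rose. Higher calls were 20 of 13490 genes (0.148%). Dbp, a PAR bZIP factor and a classical E-box target, had 77.47, 74.50 and 83.75 RPKM at 9.0 h, against 30.24, 19.82 and 30.68 RPKM at 1.5 h. Its log2 difference was 1.57 ± 0.18 (SE; limma adjusted p = 0.0072). Gm129 (Ciart), which represses the pair, had 6.20, 6.15 and 6.60 RPKM at 9.0 h, against 3.04, 2.64 and 2.14 RPKM at 1.5 h, a log2 difference of 1.26 ± 0.17 (SE; limma adjusted p = 0.0152). Neither gene overlapped between the times. Without 9.0 h replicates 1 and 3 Dbp had limma adjusted p = 0.11 and 0.187. Gm129 had 0.132, 0.0695 and 0.269 without 9.0 h replicates 1, 2 and 3, and 0.0675 without 1.5 h replicate 3. Dbp transcripts share 541 bases with Sphk2 and Ciart transcripts share 1126 bases with Gm9176, at 95% identity or more, so both values carry that uncertainty.

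Of the 9 Period, cryptochrome and E-box repressor genes, all tested, 1 was called higher and none lower, and the median log2 difference was 0.39, against -0.003 over all tested genes. An unadjusted limma p under 0.05 was reached by 5 of the 9, against 11.1% of all tested genes. This too is a description, since the list was chosen with earlier results of these data known. Bhlhe40, which competes for E-boxes, had 0.49, its relative Bhlhe41 had 0.18 and the cryptochrome Cry2 had 0.39 (limma adjusted p = 0.195, 0.848 and 0.378). Of the 4 genes Dbp, Tef, Hlf and Nfil3, only Dbp was called, and 2 had an unadjusted limma p under 0.05. Tef and Hlf, PAR bZIP relatives of Dbp, had log2 differences of 0.59 and 0.19, and Nfil3, which opposes them at D-boxes, had -0.21.

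Cofactors and modifying enzymes of the pair showed no call by limma (3 had an unadjusted p under 0.05, against 11.1% of all tested genes). Of 24 in the list, all tested, 13 had differences below 0 and 11 above, with a median of -0.08 and a range from -0.72 to 0.31. The lowest was Mll1 (Kmt2a, a histone methyltransferase), named after its value was seen, at -0.72 (limma adjusted p = 0.192), between the differences of Clock and Arntl. The most abundant were Gnb2l1 (Rack1, a scaffold for kinases) at -0.22, Ddx5 (an RNA helicase) at 0.09 and Csnk2b (the regulatory subunit of casein kinase 2) at 0.27. The other bHLH-PAS genes, which share the domains of the activators, also gave no limma call and no unadjusted p under 0.05. Of 15, 9 were tested, with a median of -0.09 and a range from -0.38 to 0.02. Hif1a and Epas1, the oxygen-responsive alpha subunits, had 0.02 and -0.21, and the coactivator Ncoa2 had -0.12. The differences of Arntl, Clock and Npas2 were below the whole range of these 9 genes. Genes under the filter are outside that range. Among them, named after their values were seen, Npas1 averaged 0.547 RPKM at 9.0 h against 0.838 RPKM at 1.5 h, without overlap. Npas4 went the other way without overlap (0.546 against 0.333 RPKM), and the rest overlapped.

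**Figure D3:**
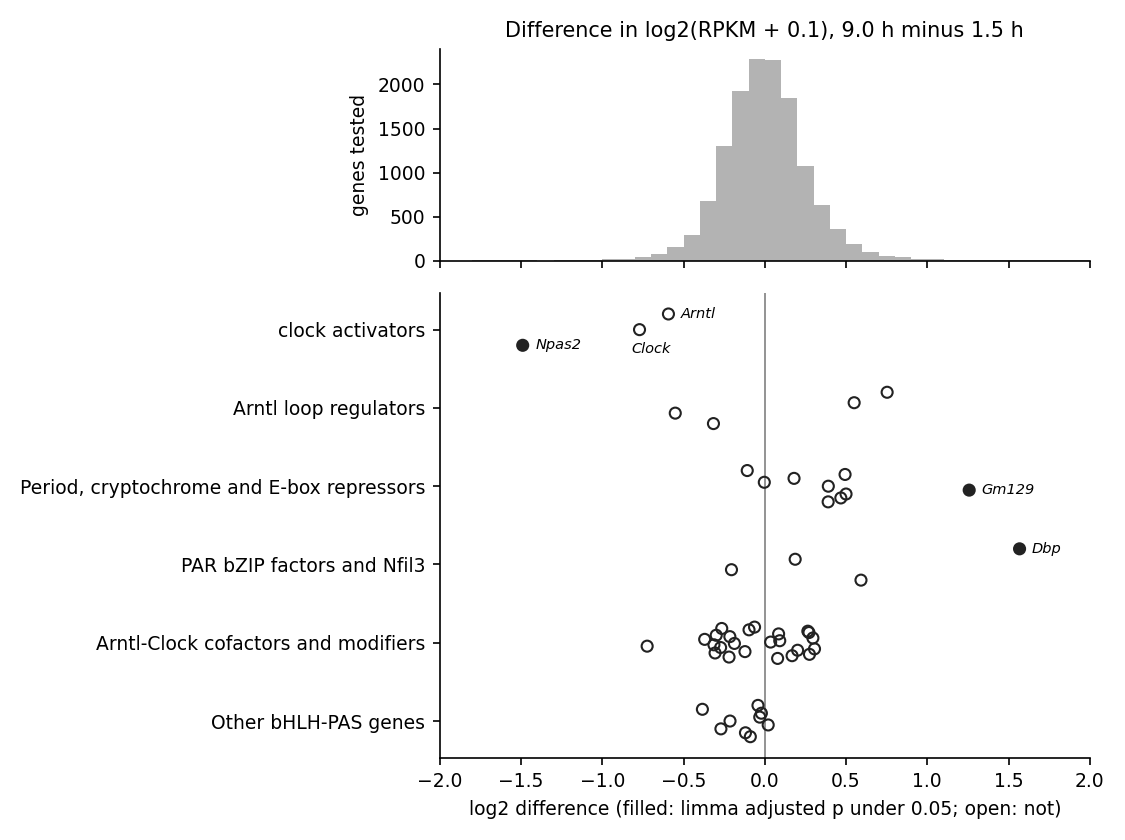
Top, number of the 13490 tested genes by difference in log2(RPKM + 0.1), 9.0 h minus 1.5 h. Bottom, the same difference for Arntl, Clock and Npas2 and for 5 lists of related genes, with filled points for limma adjusted p under 0.05 and differences beyond 2 not drawn. Npas2 (-1.49) lies at the left edge, Gm129 (1.26) and Dbp (1.57) at the right, the other bHLH-PAS genes lie between -0.38 and 0.02, and the cofactors between -0.72 and 0.31.

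The profile of each tested member over the 6 libraries was set against 12022 tested genes with a mean of at least 2 RPKM, by Pearson's r of log2(RPKM + 0.1). These correlations are a description, since the 6 points share 2 times and differ in depth and in levels of tissue marker genes. Genes close to Clock were Insr, 4632415L05Rik, Jmjd1c and Rab3c (0.994 to 0.995), and 70 genes reached 0.95. Npas2 was most like Slc4a11, Sp1, Ash1l, Ubn2 and Zfp462 (0.990 to 0.995), with 61 genes at 0.95 or more. Arntl was most like Mef2c, Zdhhc21, Rab22a, AK129341 and Coq6 (0.987 to 0.994), with 102 genes at 0.95 or more. Among the members, r was 0.966 for Clock with Npas2, 0.895 for Arntl with Clock and 0.795 for Arntl with Npas2. With Arntl2 it was -0.55 for Arntl, -0.15 for Clock and -0.03 for Npas2.

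Levels of tissue marker genes differed between libraries, for lens, stroma and sclera, and skeletal muscle most in 1.5 h replicate 1. There the 19 lens, 9 stroma and sclera and 10 skeletal muscle genes deviated by -0.77, -0.83 and -0.69 (log2) from their averages over all 6 libraries. Summed lens RPKM ranged from 210318 to 253490 at 9.0 h and from 125977 to 217755 at 1.5 h. The same library had the highest Npas2 and Arntl2 and the lowest 1.5 h Arntl. Without it the Npas2 difference was -1.32 and the Clock difference -0.74. Averaged over the list, the 16 rod and the 15 inner retina genes deviated by -0.14 to 0.15 in every library, while single genes had log2 differences, 9.0 h minus 1.5 h, of -0.53 to 0.33 and -1.15 to 0.23. The 9 tested pigment cell genes summed to between 1365 and 1468 RPKM at 9.0 h and between 1220 and 1954 RPKM at 1.5 h, overlapping between the times. The 8 corneal epithelium genes overlapped too, with sums of 4466 to 5717 RPKM at 9.0 h and 3579 to 5291 RPKM at 1.5 h. Of 6 blood genes 4 were listed at 0 throughout, and the 2 tested ones summed to 374.7 RPKM in 1.5 h replicate 3, against 43.7 to 120.2 RPKM in the other libraries. Summed levels of all 8 tissue lists overlapped between the times. For single genes, log2 differences were above 0 in 16 of 19 lens genes (median 0.42), 7 of 9 stroma and sclera genes (median 0.58) and 8 of 10 muscle genes (median 0.43, with 1 called), and below 0 in 8 of 9 pigment cell genes (median -0.30). Without overlap and higher at 9.0 h were 8 of 19 lens, 5 of 9 stroma and sclera and 5 of 10 muscle genes. So were 3 of 15 inner retina, 2 of 16 rod and 1 of 8 corneal epithelium genes, against 9.78% of all tested genes. Without overlap and lower were 4 of 16 rod, 3 of 9 pigment cell and 2 of 15 inner retina genes, against 8.41%. The part of these tissue genes in the differences of the activators was not tested.

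**Figure D4:**
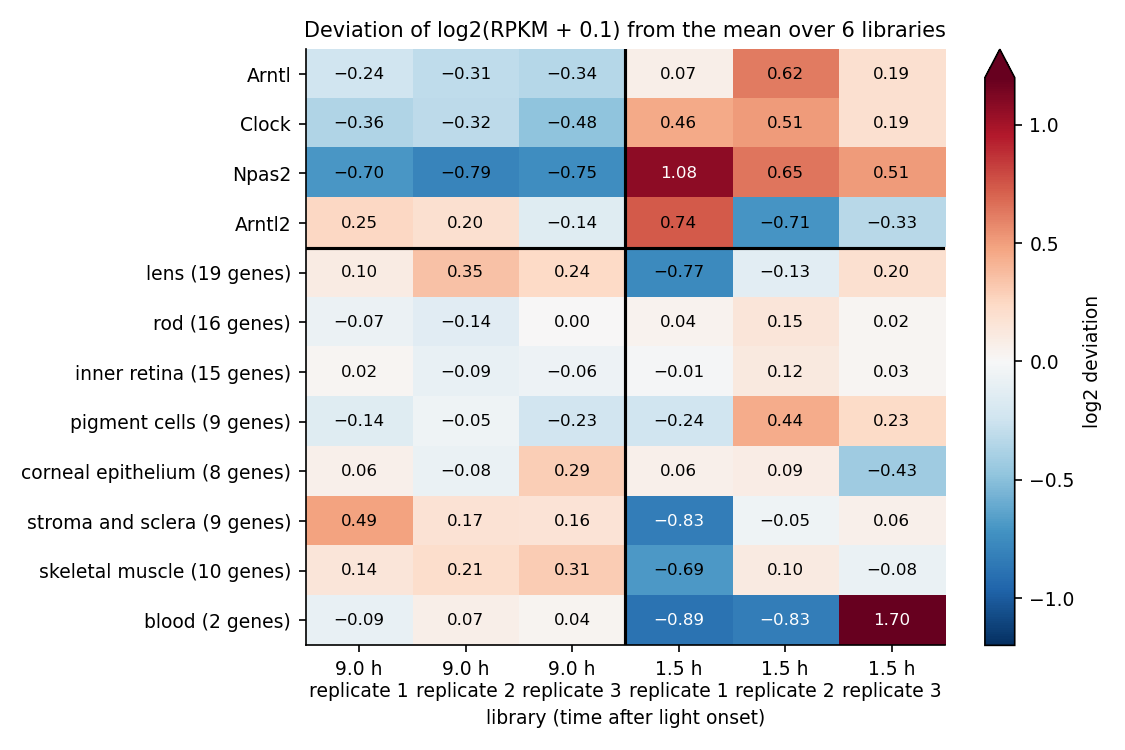
Deviation of log2(RPKM + 0.1) from the mean over the 6 libraries, for each activator (top 4 lines) and averaged over each tissue list (lower lines), with 9.0 h libraries on the left and 1.5 h libraries on the right. Arntl, Clock and Npas2 are below their mean in every 9.0 h library and above it in every 1.5 h library, while lens, stroma and muscle genes are low in 1.5 h replicate 1.

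Scaling moved the size of the differences of Arntl, Clock and Npas2 and not their direction. When each library was rescaled to the same sum, the median of all tested genes shifted to -0.22, and the differences of Arntl, Clock and Npas2 relative to it were -0.59, -0.77 and -1.53. Calls then split into 6 higher and 23 lower, against 20 higher and 10 lower with RPKM as deposited. Npas2 was called in both (limma adjusted p = 0.00874 after rescaling). Gm129 was not called after rescaling (limma adjusted p = 0.0698).

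**Figure D5:**
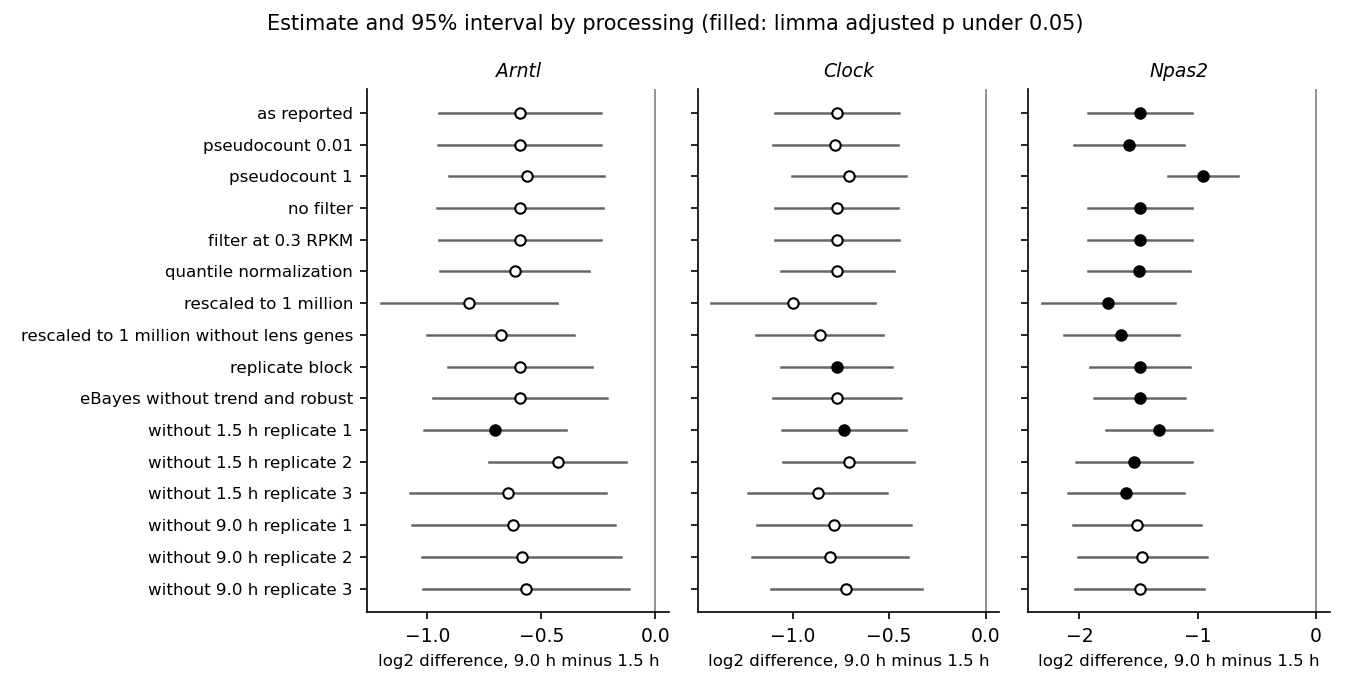
Log2 difference, 9.0 h minus 1.5 h, with its 95% interval for Arntl, Clock and Npas2 (horizontal axes) under each processing setting (lines), filled where limma adjusted p is under 0.05. All estimates are below 0, and the Npas2 points are open without any 1 of the 9.0 h libraries.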

How the data were processed

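The authors deposited 1 table of RPKM values per library. The unit was taken from the values, since the headers name only the sample. The submitters' processing notes name GSNAP, HTSeq and build mm9. Tool versions, the annotation, strandedness and the handling of multiply mapped reads are not stated in them. Total reads per library were estimated as the number that makes RPKM times length whole for low genes with a single GENCODE M21 transcript (68.5% to 71.2% of values within 0.1 of a whole number). They cover counting error only.

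From these values, log2(RPKM + 0.1) was fitted with limma 3.58.1 in R 4.3.3 (eBayes with trend and robust, no replicate block), checked on simulated data. Member ratios were tested by exact permutation over libraries. Alternatives covered the pseudocount, filter, scaling, replicate block, moderation and each library left out. The members and gene lists were chosen with earlier results of these data known. The rule for naming genes took all members, every member of lists of 5 or fewer, called list members, and the 3 most abundant of each longer list. It also took the 5 genes most like each tested member. One gene that the rule and a list would name is not reported here. RefSeq promoters are of GRCm38.p6, not the build of the files, and served as sequence only.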

Additional observations from a re-analysis of the deposited data

How the results depend on the processing

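Direction held for Arntl, Clock and Npas2 under every setting tried, and for the 4 ratios at the other pseudocounts and without any 1 library, the settings run for them. Leaving out 1 library at a time gave log2 differences of -0.70 to -0.43 for Arntl, -0.87 to -0.71 for Clock, -1.61 to -1.32 for Npas2 and -0.10 to 0.62 for Arntl2, and from 2 to 1245 called genes, against 30 in all 6 libraries. The 1245 came without 1.5 h replicate 1, a fit in which p-values were far smaller throughout. Quantile normalization called 15 genes. With the replicate block 141 genes were called and the Clock difference of -0.77 passed (limma adjusted p = 0.0169). The labels name no batch, so the main fit had no replicate block. Correlations of the deviations of same-numbered libraries from their group means were 0.347, 0.484 and -0.215. The same-numbered library was the best match for 9.0 h replicates 1 and 2, while 9.0 h replicate 3 correlated best with 1.5 h replicate 1. Deviations from a mean of 3 libraries depend on each other, so these correlations cannot tell whether the numbers are pairs. Depth limits Arntl2 most, at about 17 to 119 reads per library.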
